A study of Homo sapiens with 6 samples.

Results

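The genes described here are 44 genes of autophagy and the lysosome, measured in RNA recovered with an antibody against AGO2 from PC3 cells, an androgen-independent prostate cancer line. They were taken from a fixed list of symbols. A gene was read from a probe set that carried its symbol alone, the brightest over the 6 arrays where it had several. All 44 had such a probe set, of 18417 genes named in this way. Cells were transfected with a miR-205 mimic (n = 3 arrays) or with a negative control mimic (n = 3 arrays), and the series describes the 3 arrays of a group as biological replicates. All 6 arrays were AGO2 immunoprecipitates from this 1 line, and the series was made to find targets of miR-205. AGO2 is the Argonaute protein that holds a microRNA on its target transcripts. Arrays of input RNA were not analysed here, so a change in the binding of a transcript to AGO2 and a change in its abundance cannot be told apart, and neither can fewer cells of a kind and less RNA per cell.

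Autophagy encloses cytoplasm in a double membrane and delivers it to the lysosome for breakdown. The ULK1 kinase complex starts it, and a class III PI3-kinase complex built on BECN1 marks the membrane with a phosphoinositide. ATG9A and the ATG2 proteins then supply lipid, and a pair of ubiquitin-like conjugation systems attach ATG8 proteins (the LC3 and GABARAP families) to the growing membrane. Cargo receptors such as SQSTM1 link what is to be degraded to the ATG8 proteins. Lysosomal proteases, the cathepsins, digest the content, and the transcription factors TFEB, TFE3 and MITF control many genes of both steps.

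The sequence of the transfected microRNA is shown because the seed, bases 2 to 8, is what directs AGO2 to a transcript. The labels name miR-205 without an arm, so both arms listed in RefSeq (GRCh38.p14) are given, with the seed in capitals. The 5p arm lies at chr1:209432166-209432187 and the 3p arm at chr1:209432203-209432223, both on the plus strand.
hsa-miR-205-5p: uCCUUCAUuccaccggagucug
hsa-miR-205-3p: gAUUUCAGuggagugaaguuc
Matches to either seed in the transcripts were not searched, since transcript sequences were not used here.

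With the miR-205 mimic, 10 of the 44 genes fell and 3 rose. Those that fell were ATG16L1, CTSB, CTSL, UVRAG, ATG9A, RB1CC1, ATG4C, ATG14, ATG5 and LAMP1, and those that rose were MITF, ATG7 and BECN1. ATG16L1, which places the conjugation machinery on the membrane, moved most, to 59.5% of the control level. The cathepsin genes CTSB and CTSL and the BECN1 partner UVRAG fell to between 67.9% and 68.7% of control. The other 31 genes did not pass, among them all 5 ATG8 proteins and all 5 cargo receptors. Of all genes 26.6% passed, and 38.8% in a separate fit over brighter genes alone (defined below). Whether these classes differ from those shares was not tested.

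Values are log2 probe set intensities, and a change is the mean of the miR-205 arrays minus the mean of the control arrays. A gene passed at an adjusted p under 0.05 in limma, adjusted by Benjamini-Hochberg over all 18417 genes, two-sided. The 10 genes that fell were 22.7% of the 44, against 14.0% of all genes, and the 3 that rose were 6.82%, against 12.6%. In either direction 13 of 44 passed (29.5%), against 26.6% of all genes. A gene is called dim here if its mean lay below 6.04, the 95th percentile among 341 genes of olfactory receptors, which are silent in most cells. None of the 44 was dim, whereas 4826 of all genes were. In a fit over the 13590 brighter genes alone 38.8% passed, with 2787 lower and 2482 higher. Of the 44, 14 passed there (31.8%), with 11 lower and 3 higher. The share that passed was therefore near that of all genes and under that of bright genes. For 22 of the 44 all arrays of one group lay above all of the other, against 42.2% of all genes. The count of falls dropped to 6 when miR-205 replicate 2, miR-205 replicate 3 or control replicate 1 was left out. The median change of the 44 was -0.05, beside -0.02 for all genes. Changes ran from -0.75 to 0.46, with standard errors of 0.05 to 0.11.

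**Figure D1:**
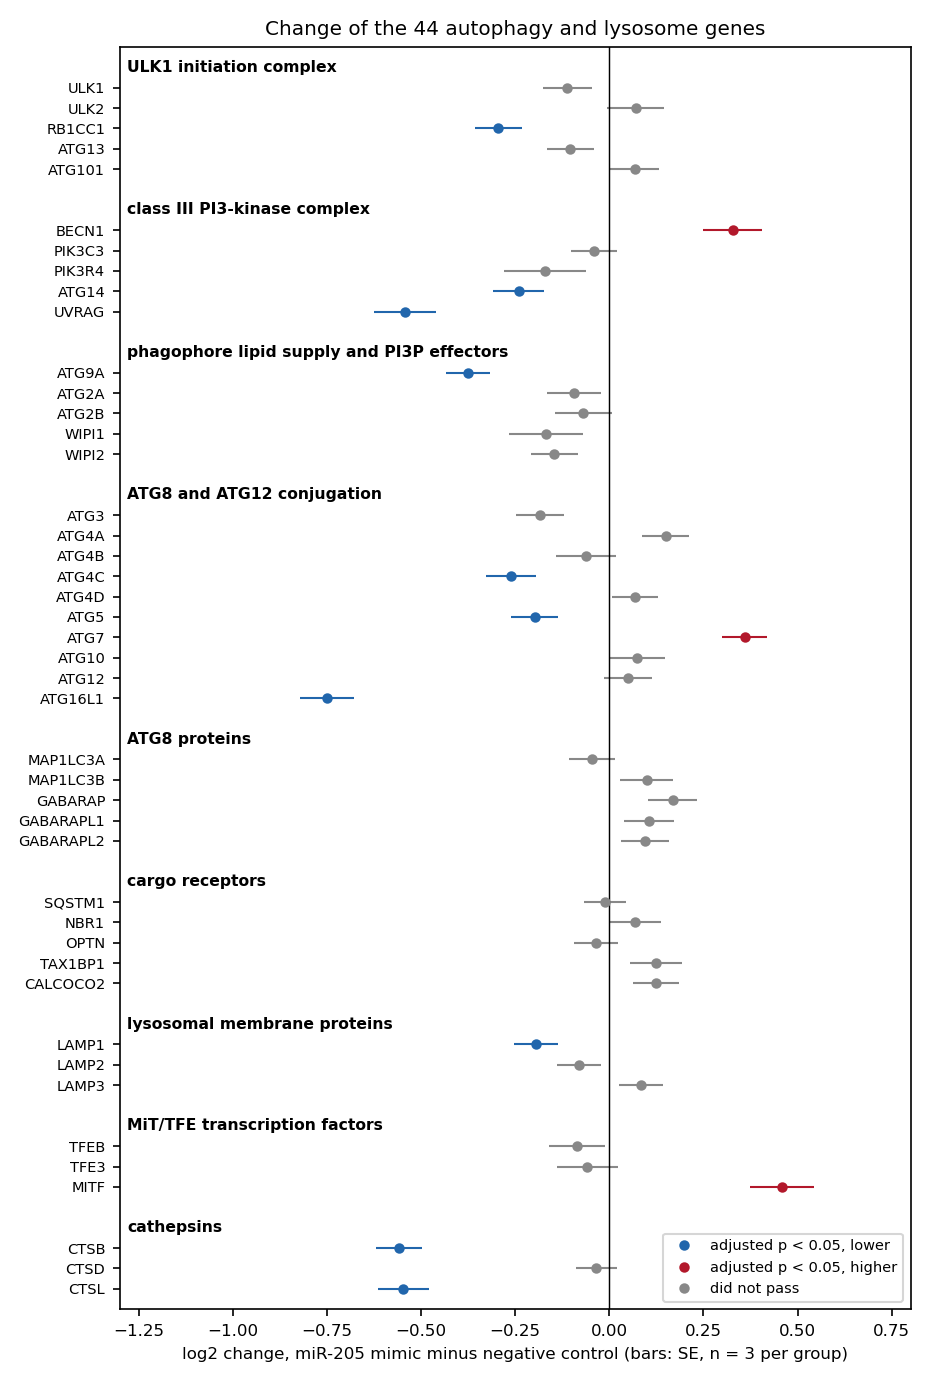
Log2 change of each of the 44 genes (horizontal axis, miR-205 mimic minus negative control; bars are the standard error, n = 3 arrays per group), grouped by role and coloured by whether the adjusted p was under 0.05. Changes lie between -0.75 for ATG16L1 and 0.46 for MITF, and the ATG8 proteins and cargo receptors hold no coloured point.

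The ULK1 complex receives starvation signals and begins the process. RB1CC1 is its large scaffold, also known as FIP200 (chromosome 8, 52622458 to 52714435 in GRCh38.p14, the build of all gene positions here). It was the 1 gene of 5 that passed (20.0%, against 26.6% of all genes). It stood at 7.89, 7.76 and 7.83 with miR-205 and at 8.11, 8.18 and 8.07 with the control. All miR-205 arrays lay below all control arrays, and the change was -0.29 ± 0.06 (SE, n = 3 per group, limma adjusted p = 0.00914). The kinase genes ULK1 (-0.11 ± 0.07) and ULK2 (0.07 ± 0.08) and the subunit gene ATG101 (0.07 ± 0.06) did not pass, and their groups overlapped. ATG13, the regulatory subunit, had a change of -0.10 ± 0.06 (adjusted p = 0.276) with groups that did not overlap.

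The class III PI3-kinase complex held genes that passed in opposite directions, 1 higher and 2 lower of 5 (60.0%, against 26.6% of all genes). BECN1, its scaffold (chromosome 17, 42810132 to 42824282), stood at 9.53, 9.52 and 9.41 with miR-205 and at 9.05, 9.30 and 9.11 with the control. It rose by 0.33 ± 0.08 (SE, n = 3 per group, limma adjusted p = 0.0154), and the nearest arrays of the groups were 0.10 apart, the control one being replicate 2. UVRAG, which joins BECN1 in complexes of late endosomes (chromosome 11, 75815210 to 76144232), stood at 9.85, 9.78 and 9.91 with miR-205 and at 10.31, 10.30 and 10.55 with the control. It had a change of -0.54 ± 0.08 (adjusted p = 0.00176), with no overlap. ATG14, which joins BECN1 in the complex that starts autophagosomes, stood at 10.23, 10.10 and 10.17 against 10.37, 10.35 and 10.51, a change of -0.24 ± 0.07 (adjusted p = 0.0303). All miR-205 arrays of ATG14 lay below all control arrays. The catalytic subunit gene PIK3C3 (-0.04 ± 0.06) and the regulatory subunit gene PIK3R4 (-0.17 ± 0.11) did not pass with all arrays. PIK3R4 varied most of the 44 genes between control arrays, which stood at 10.03, 9.80 and 10.23.

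The calls of ATG14 and BECN1 were lost in several fits with 1 array left out. Their changes kept their direction in these fits, at -0.27 to -0.19 for ATG14 and 0.28 to 0.40 for BECN1. Leaving out any array but control replicate 2 also lowered the share of all genes that passed, from 26.6% to between 18.3% and 20.7%. BECN1 no longer passed when miR-205 replicate 1 (adjusted p = 0.0583), miR-205 replicate 2 (0.0595), control replicate 1 (0.0534) or control replicate 3 (0.0556) was left out. ATG14 no longer passed without miR-205 replicate 2 (0.117), miR-205 replicate 3 (0.0794), control replicate 1 (0.0518) or control replicate 3 (0.0921). PIK3R4 passed in the absence of control replicate 2, with a change of -0.28 (adjusted p = 0.0436).

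Of the 5 genes for lipid supply and phosphoinositide reading, all had a negative change, as had 9905 of all 18417 genes. In limma 1 passed (20.0%, against 26.6% of all genes). ATG9A, a lipid scramblase carried on small vesicles (chromosome 2, 219219380 to 219229636), stood at 10.75, 10.85 and 10.78 with miR-205 and at 11.12, 11.19 and 11.19 with the control. The gap between the groups, 0.27, was wider than the range within either (0.10 and 0.07), and the change was -0.38 ± 0.06 (SE, n = 3 per group, limma adjusted p = 0.00217). The lipid transfer genes ATG2A (-0.09 ± 0.07) and ATG2B (-0.07 ± 0.08) did not pass, nor did the phosphoinositide readers WIPI1 (-0.17 ± 0.10) and WIPI2 (-0.15 ± 0.06, adjusted p = 0.12). A second, dimmer probe set of ATG2B had a change of -0.14 ± 0.09.

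Of the 10 genes of the conjugation systems, 3 fell and 1 rose. This was 40.0%, against 26.6% of all genes and 38.8% in the fit over brighter genes. ATG16L1 binds the ATG12-ATG5 conjugate and sets where ATG8 proteins are attached (chromosome 2, 233251673 to 233295669). It stood at 8.55, 8.56 and 8.43 with miR-205 and at 9.30, 9.15 and 9.33 with the control. The lowest control array lay 0.59 above the highest miR-205 array, and the change was -0.75 ± 0.07 (SE, n = 3 per group, limma adjusted p = 0.00019). ATG5, which is joined to ATG12, stood at 9.13, 9.01 and 9.09 against 9.27, 9.33 and 9.22, a change of -0.20 ± 0.06 (adjusted p = 0.0465), close to the threshold. ATG12 itself had a change of 0.05 ± 0.06, with overlapping groups, and ATG10, the enzyme that transfers it, 0.07 ± 0.07.

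ATG7, the activating enzyme of both systems (chromosome 3, 11272397 to 11576353), stood at 9.42, 9.41 and 9.31 with miR-205 and at 8.98, 9.01 and 9.06 with the control. All miR-205 arrays were above all control arrays, and the change was 0.36 ± 0.06 (SE, n = 3 per group, limma adjusted p = 0.00293). ATG3, the transfer enzyme for ATG8 proteins, had a change of -0.18 ± 0.06 (adjusted p = 0.0649), with groups that did not overlap. Of the 4 ATG4 proteases, which trim ATG8 proteins and release them from membranes, ATG4C fell, from 9.53, 9.51 and 9.47 in the control to 9.33, 9.14 and 9.25 (-0.26 ± 0.07, adjusted p = 0.0208). ATG4A (0.15 ± 0.06, adjusted p = 0.113), ATG4B (-0.06 ± 0.08; -0.09 ± 0.09 in a second probe set) and ATG4D (0.07 ± 0.06) did not pass. The ATG4A groups did not overlap, with all miR-205 arrays higher.

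In this group the call of ATG5 ended when any 1 array was left out (adjusted p = 0.0567 without control replicate 3 to 0.17 without miR-205 replicate 2). Other such values for ATG5 were 0.0713 and 0.104 without miR-205 replicates 1 and 3, and 0.097 and 0.0926 without control replicates 1 and 2. ATG4C no longer passed without miR-205 replicate 2 (0.0864), miR-205 replicate 3 (0.0566) or control replicate 1 (0.0615). ATG16L1 and ATG7 passed in all 6 of these fits.

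**Figure D2:**
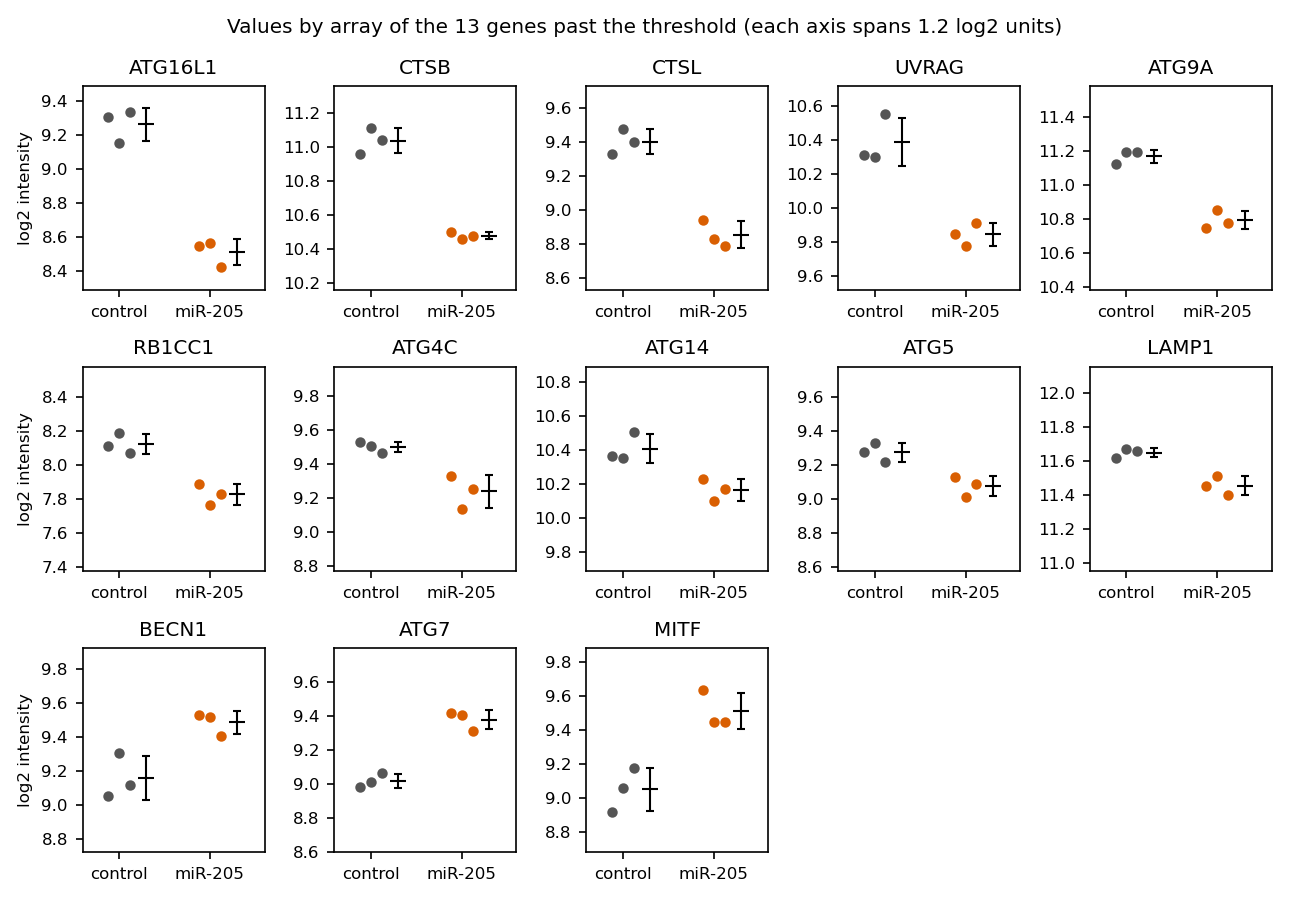
Log2 intensity by array (points) of the 13 genes that passed, with the mean and SD of each group (bar to the right of the points, n = 3 arrays). Every axis spans the same 1.2 log2 units, and in each panel the arrays of the groups do not overlap, with the widest gap in ATG16L1.

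Of the 5 ATG8 protein genes, 0 passed in limma (26.6% of all genes did). An unadjusted p under 0.05 was found for 6965 of all 18417 genes and for 1 of these 5. That gene was GABARAP, which stood at 12.10, 12.12 and 12.15 with miR-205 and at 11.97, 12.04 and 11.87 with the control. Its groups did not overlap, and the change was 0.17 ± 0.06 (SE, n = 3 per group, limma adjusted p = 0.0886). In the absence of control replicate 2 GABARAP passed, at 0.21 (adjusted p = 0.0416). GABARAPL1 (0.11 ± 0.07), GABARAPL2 (0.10 ± 0.06) and MAP1LC3B (0.10 ± 0.07), the gene of the widely used marker LC3B, had positive changes with overlapping groups, and MAP1LC3A had -0.05 ± 0.06. A further probe set carried the symbols of both MAP1LC3B and its near copy MAP1LC3B2. It had a change of 0.13 ± 0.08, and the signals of the copies were not separated there. Confidence intervals (95%) from the fit reached from -0.19 for the lowest bound, that of MAP1LC3A, to 0.31 for the highest, that of GABARAP.

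Of the 5 cargo receptor genes, 0 passed in limma (26.6% of all genes did). An unadjusted p under 0.05 was found for 0 of them, against 6965 of all 18417 genes. SQSTM1, which encodes p62, stood at 11.75, 11.80 and 11.77 with miR-205 and at 11.76, 11.77 and 11.82 with the control. These values interleave, with a change of -0.01 ± 0.06 and a 95% interval from -0.14 to 0.12. NBR1, a receptor of similar build, had 0.07 ± 0.07 and OPTN, a receptor for bacteria and mitochondria, -0.04 ± 0.06. The receptor genes TAX1BP1 (0.12 ± 0.07) and CALCOCO2 (0.12 ± 0.06), the latter encoding NDP52, had the largest changes of the group, and only the CALCOCO2 groups did not overlap.

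Among the genes of the lysosome itself, both cysteine cathepsins of the list fell. They are 2 of the 3 cathepsin genes (66.7%, against 26.6% of all genes that passed). CTSB, which encodes cathepsin B (chromosome 8, 11842524 to 11868087), stood at 10.50, 10.46 and 10.47 with miR-205 and at 10.96, 11.11 and 11.04 with the control. The miR-205 arrays spanned 0.04, the gap to the control arrays was 0.46, and the change was -0.56 ± 0.06 (SE, n = 3 per group, limma adjusted p = 0.000377). CTSL, which encodes cathepsin L (chromosome 9, 87726119 to 87731469), stood at 8.94, 8.83 and 8.79 against 9.33, 9.48 and 9.40, a change of -0.55 ± 0.07 (adjusted p = 0.00067). The aspartic protease gene CTSD had a change of -0.03 ± 0.05. Its arrays did not overlap, since they lay close together, at 11.59, 11.61 and 11.56 with miR-205 and 11.63, 11.63 and 11.61 with the control.

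Of the 3 LAMP genes, 1 passed (33.3%, against 26.6% of all genes). This was LAMP1, which encodes an abundant glycoprotein of the lysosomal membrane (chromosome 13, 113297239 to 113323672). It fell, from 11.62, 11.67 and 11.66 in the control to 11.45, 11.51 and 11.40 with miR-205. The change was -0.19 ± 0.06 (SE, n = 3 per group, limma adjusted p = 0.0384). It no longer passed when any 1 array was left out (0.0615 without control replicate 1 to 0.128 without miR-205 replicate 3; 0.102 and 0.0653 without miR-205 replicates 1 and 2, and 0.0662 and 0.0895 without control replicates 2 and 3). LAMP2 (-0.08 ± 0.06), which serves in chaperone-mediated autophagy, and LAMP3 (0.08 ± 0.06) did not pass, although their groups did not overlap.

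The transcription factor gene MITF (chromosome 3, 69739464 to 69968332) had the largest positive change of the 44. It stood at 9.64, 9.45 and 9.45 with miR-205 and at 8.92, 9.06 and 9.17 with the control. The groups did not overlap, and the change was 0.46 ± 0.08 (SE, n = 3 per group, limma adjusted p = 0.00448). Its relatives TFEB (-0.09 ± 0.07) and TFE3 (-0.06 ± 0.08) did not pass, and their groups overlapped. MITF has several promoters and isoforms, and the 1 probe set used does not tell them apart.

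Partners were also compared within arrays, as the difference of their log2 values, which shows unequal change. The 11 pairs were chosen after the changes were seen, and with 3 against 3 arrays the smallest exact permutation p is 0.1 (two-sided), so the design could not reach the threshold. ATG16L1 minus ATG12 was -1.32 ± 0.06 (SD, n = 3) in miR-205 arrays and -0.53 ± 0.15 (SD, n = 3) in control arrays (exact p = 0.1). ATG16L1 minus ATG5 was -0.56 ± 0.11 against -0.01 ± 0.15, and UVRAG minus ATG14 was -0.32 ± 0.06 against -0.02 ± 0.06 (exact p = 0.1 for both, n = 3 each). The groups did not overlap in any of these 3 differences, and each was lower with miR-205.

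ATG7 minus ATG3, the enzymes of successive steps, was 0.54 higher with miR-205, and BECN1 minus PIK3C3 was 0.37 higher. The difference between the groups was -0.41 for ATG4C minus ATG4A, -0.52 for CTSB minus CTSD and -0.51 for CTSL minus CTSD. It was 0.52 for MITF minus TFE3 and 0.55 for MITF minus TFEB. In all of these the groups did not overlap, with an exact permutation p of 0.1. For LAMP1 minus LAMP2 it was -0.11, with overlapping groups (exact p = 0.2). Adjusted by Benjamini-Hochberg over the 11 pairs, the values were 0.11, and 0.2 for the LAMP pair.

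**Figure D3:**
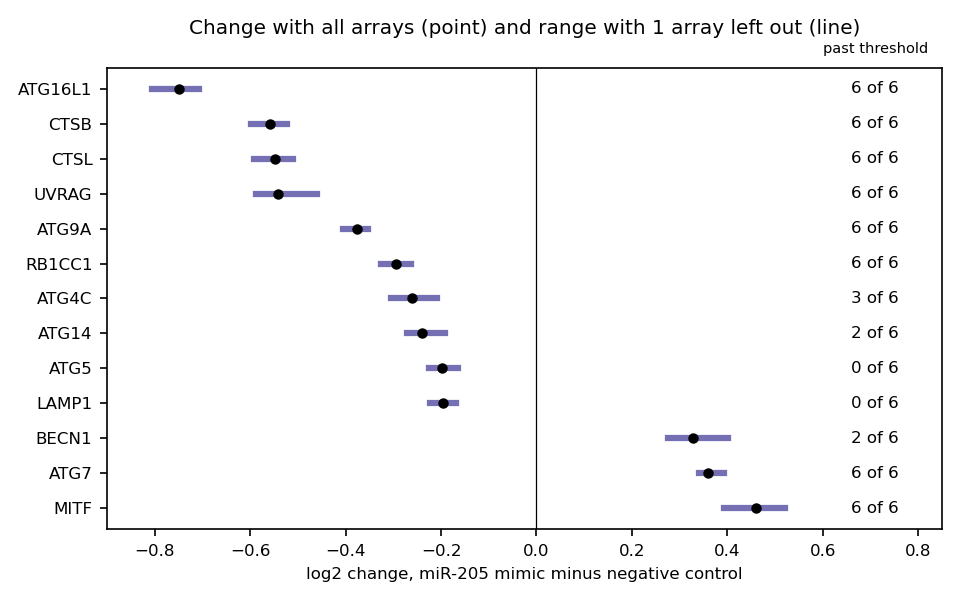
Log2 change of the 13 genes that passed with all 6 arrays (point) and the range of the change when 1 array was left out (line), with the number of the 6 such fits in which the adjusted p was under 0.05 (right). No range crosses 0, and 8 of the genes kept 6 of 6 calls, whereas ATG5 and LAMP1 kept 0 of 6.

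Other genes of the pathway, from lists of related function, moved in both directions. The shares that passed are to be read against 26.6% of all genes (14.0% lower, 12.6% higher) and 38.8% of the brightly measured genes. The 38.8% comes from the separate fit over bright genes, adjusted over those alone. The shares of the lists come from the fit over all genes, and most lists hold some dim genes, so the match is loose. Of 32 further autophagy factors, 9 fell and 3 rose (37.5% passed, median change -0.09). DRAM1, a lysosomal membrane protein induced by p53, had a change of -1.37 ± 0.06 (SE, n = 3 per group, limma adjusted p = 6.7e-06), larger than that of any of the 44. TP53INP1, a stress protein that binds LC3, had -0.75 ± 0.07 (adjusted p = 0.000149). VAMP8, a SNARE of autophagosome and lysosome fusion, rose by 1.11 ± 0.07 (adjusted p = 2.38e-05).

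Of 37 lysosomal hydrolases and cofactors, 10 rose and 8 fell (median 0.02). This was 48.6% of the list (27.0% higher, 21.6% lower), against 26.6% of all genes and 38.8% of brightly measured ones, and 4 of the 37 were dim. With 1 array left out, 6 to 10 rose and 5 to 6 fell, so the count of falls dropped by over 1.5 times without miR-205 replicate 2 or 3 (5 each), and that of rises without miR-205 replicate 2 (6). The sialidase gene NEU1 (-0.49 ± 0.06) and the arylsulfatase gene ARSB (-0.45 ± 0.07) fell, and the acid phosphatase gene ACP2 rose (0.55 ± 0.07), with adjusted p of 0.000838, 0.00189 and 0.000902 by limma.

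Of 32 lysosomal transporters, channels and sorting receptors, 7 fell and 6 rose (40.6% passed, median -0.09). IGF2R, the receptor that carries hydrolases to the lysosome by their mannose 6-phosphate, had a change of -0.67 ± 0.06 (limma adjusted p = 0.000191). The ion channel gene TMEM175 (0.36 ± 0.06) and the lipid transporter gene ABCA2 (0.41 ± 0.07) rose. Of 22 subunits of the V-ATPase, the proton pump of the lysosome, 4 rose and 2 fell (1 without miR-205 replicate 3 or control replicate 3), with a median of 0.02 and 27.3% passing. ATP6V1A of the catalytic head rose by 0.66 ± 0.09 and ATP6V0E2 by 0.33 ± 0.06, while ATP6V0A2 of the membrane sector had -0.77 ± 0.09 (adjusted p = 0.000392).

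Of 36 genes of mTORC1, AMPK and nutrient sensing, which act upstream of ULK1 and TFEB, 10 fell and 7 rose (median -0.05). This was 47.2% of the list (27.8% lower, 19.4% higher), against 26.6% of all genes and 38.8% of brightly measured ones. PRKAA2, a catalytic subunit of AMPK, rose by 1.04 ± 0.06 (limma adjusted p = 2.55e-05). The folliculin partners FNIP1 (-0.71 ± 0.09) and FNIP2 (-0.72 ± 0.11) fell. The count of rises was 4, 3 and 4 without miR-205 replicate 1, miR-205 replicate 3 and control replicate 3. Of 14 genes of the tethering complexes HOPS and CORVET and of retromer, 3 rose and 2 fell (3 without control replicate 1), with a median of -0.07 and 35.7% passing. VPS29 of retromer rose by 0.56 ± 0.07 and VPS8 of CORVET by 0.54 ± 0.09, while VPS33A of HOPS fell, with -0.45 ± 0.06.

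**Figure D4:**
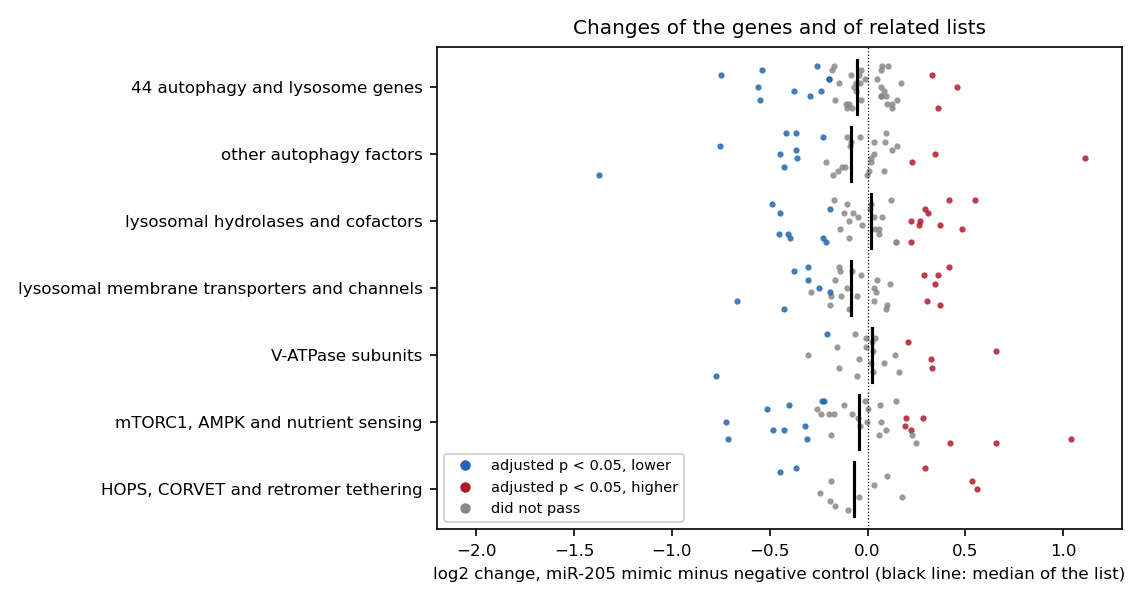
Log2 change (horizontal axis, miR-205 mimic minus negative control) of each measured gene of the 44 and of 6 related lists, with the median of the list as a black line and colour for genes with an adjusted p under 0.05. Each list holds genes on both sides of 0, and all medians lie between -0.09 and 0.02.

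Promoters were read for an E-box that TFEB, TFE3 and MITF bind in lysosomal genes, since MITF rose. RefSeq promoters (GRCh38.p14; 250 bases before to 50 after a gene's start) were at hand for 37 of the 44 genes. CACGTG, which reads the same on both strands, was held by 4 of the 37 (10.8%), ATG3, ATG14, CTSD and LAMP1, against 10.9% of 14239 genes tested. The longer TCACGTGA, which contains it, was held by 2 (5.41%), ATG3 and LAMP1, against 1.71% of the same genes. Of the 7 genes that fell and had a promoter, ATG14 and LAMP1 held CACGTG, and of the 3 that rose none did. That count rests on calls lost in most fits with 1 array left out, where ATG14 passed in 2 of 6 and LAMP1 in 0 of 6. LAMP1 held 6 copies, and no other of the 14239 genes had as many.

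A 30-base stretch around 1 copy is shown for each, and around both copies for ATG3, with the E-box in capitals, to let the flanks be compared. The ATG14 stretch is chr14:55411834-55411863 (minus strand, E-box 21 bases before the start), that of ATG3 chr3:112561963-112561992 (minus, 18 bases before), its second chr3:112561940-112561969 (minus, 5 bases after), that of CTSD chr11:1763957-1763986 (minus, 47 bases before) and that of LAMP1 chr13:113297199-113297228 (plus, 28 bases before).
ATG14: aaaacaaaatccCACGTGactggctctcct
ATG3, first copy: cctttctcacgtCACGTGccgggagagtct
ATG3, second copy: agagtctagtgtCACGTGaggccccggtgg
CTSD: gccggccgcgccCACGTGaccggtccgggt
LAMP1: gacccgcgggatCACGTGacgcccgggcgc
Of these stretches, that of LAMP1 and the second of ATG3 hold the longer TCACGTGA. A match of letters is a description and does not show that a factor binds there.

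Arrays of the same group differed over the 44 genes with an SD of 0.09 to 0.11 (miR-205) and 0.10 to 0.14 (control), and arrays of different groups with 0.24 to 0.27. Over all genes control replicate 2 stood apart from the other control arrays (SD 0.21 and 0.22, against 0.15 between those) and lay nearer the miR-205 arrays (0.28) than they did (0.32 to 0.34). It was the control array nearest the miR-205 mean for 4 of the 13 genes that passed, control replicate 1 for 4 and control replicate 3 for 5, and without it 9 of the 44 fell and 4 rose, while the share of all genes that passed was 30.1%. Of 6 epithelial markers, 0 were dim and 4 rose, where 12.6% of all genes did. Those that rose were EPCAM (2.29 ± 0.10), CDH1 (1.91 ± 0.06), KRT8 (0.89 ± 0.07) and KRT18 (0.55 ± 0.06). CLDN4 (-0.14 ± 0.07) and KRT19 (-0.03 ± 0.06) did not pass. The summed log2 signal of all 6 was 13.58 to 13.66 with miR-205 and 13.11 to 13.14 with the control. Of 5 endothelial markers, 2 fell (PECAM1 and KDR) and 3 were dim, with a sum of 8.64 to 8.85 against 9.34 to 9.62. Of 6 leukocyte markers 4 were dim, PTPRC and CD3E among them. In limma 0 of the 6 passed, and 1 had an unadjusted p under 0.05, as had 6965 of all 18417 genes. All 6 summed to 9.99 to 10.15 against 10.14 to 10.20. CD68 was by far the brightest (means 9.73 and 9.86), with CD14 next (6.25 and 6.42). Of 6 fibroblast markers 1 rose and 1 fell (sums 9.68 to 9.74 and 9.65 to 9.69; DCN and LUM were dim), and of 3 measured markers of androgen-dependent luminal cells 1 rose, the dim ACP3 (sums 7.63 to 7.70 and 7.52 to 7.66). The part of these markers in the changes of the 44 genes was not tested.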

How the data were processed

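The authors deposited 1 table of log2 intensities per probe set for the 6 arrays. Per the submitters' processing notes it was made with RMA in Affymetrix Expression Console (version 1.1.2), while the annotation used is not given in the sources used here. No normalization was added. Of 33297 probe sets, 19460 carried a single gene symbol in the platform's annotation, for 18417 genes. limma 3.58.1 (R 4.3.3) fitted the group term by lmFit and eBayes to all 18417 genes, and two-sided p-values were adjusted by Benjamini-Hochberg over all of them (threshold 0.05). The fit was tested on simulated data with independent normal noise, no deviating array and far fewer changed genes than passed here. That is a check of the code and not of these results. The members and lists were chosen with earlier results of these data known, so counts and medians of lists were given without a test. Of each related list, up to 3 genes with the smallest p past the threshold were named. Alternatives covered normalization, a filter on dim genes, probe set summary, variance model, array weights, a replicate block, removal of a trend with signal, and each array left out. The number of arrays limits the precision.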

Additional observations from a re-analysis of the deposited data

How the results depend on the processing

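Over 17 alternatives, 8 of the 13 genes passed in all (RB1CC1, UVRAG, ATG9A, ATG7, ATG16L1, MITF, CTSB and CTSL), and all 13 kept their direction. Between 7 and 11 genes fell and 3 or 4 rose under the 11 alternatives that kept all arrays. With 1 array left out, 6 to 9 fell and 2 to 4 rose, with a median change of -0.05 to -0.04. Leaving out any array but control replicate 2 also lowered the share of all genes that passed, from 26.6% to between 18.3% and 20.7%, and without control replicate 2 it was 30.1% (2881 lower, 2668 higher). ATG5 did not pass with repeated quantile normalization, cyclic loess, all probe sets tested, the trend with signal removed or the block, ATG14 not with all probe sets, and LAMP1 not with all probe sets or the block. ATG3 passed with the filter on dim genes (adjusted p = 0.0405) and, like GABARAP, with a variance trend. With the replicate number as a replicate block, 8 genes fell and 3 rose. The labels do not say whether same-numbered arrays were handled together. Their deviations correlated by 0.06, 0.09 and 0.01 over genes, which cannot decide it.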
